A study of Mus musculus with 12 samples.

Results

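Hearts of mouse embryos that lacked Tbx5 were compared directly with hearts that lacked Nkx2-5, both dissected at stage E8.75, when the heart is a looping tube. The comparison used 3 Tbx5 KO arrays and 3 Nkx2-5 KO arrays of a series of 12 Affymetrix arrays, in which wild-type (WT) hearts and hearts that lacked both genes (double KO) were the other groups, with 3 arrays each. Every probe set that carried exactly 1 gene symbol and lay outside the X and Y chromosomes was taken, which gave 20943 of 35557 probe sets and, with the brightest probe set of each gene, 19168 genes. The labels call the arrays of a group biological replicates and give the genotypes only as KO, without the alleles, the part of each gene that was removed, the strain, or whether an array held 1 heart or a pool. The p-values therefore measure the spread between these arrays. Total RNA was isolated with the PicoPure kit, amplified with NuGEN Ovation and labelled with biotin. Values are deposited log2 levels, so a difference of 1 is a 2-fold change. A gene was called when its adjusted p in limma (Benjamini-Hochberg over all genes) was under 0.05.

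Tbx5 and Nkx2-5 are transcription factors, of the T-box and the NK2 homeodomain family, that bind DNA together and with Gata4 at many heart genes. Tbx5 is strongest at the inflow end of the heart tube, in the sinus venosus, the atria and the left ventricle, and loss of it in mice leaves the inflow part underdeveloped. Nkx2-5 is made throughout the heart muscle, where it is needed for chamber growth and for keeping pacemaker genes out of working muscle. In hearts that lack it, genes such as Hcn4 and Tbx3 spread beyond the inflow region. In whole dissected hearts, fewer cells of a type and less RNA per cell cannot be told apart.

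Arrays of the same group correlated at 0.969 to 0.984 across probe sets, and Tbx5 KO arrays correlated with Nkx2-5 KO arrays at 0.970 to 0.981. The mean level of 7 cardiac muscle markers (12.79 to 13.0 on the 6 compared arrays) showed heart muscle in every sample, and none of these markers was called. Nkx2-5, itself a targeted gene, is among these 7, and its values are given below. Among markers of other cell types, the endocardial gene Nfatc1 and the neural gene Pax6 were called lower and the trophoblast gene Prl3d3 higher in Tbx5 KO, and those values stand with their groups below. The labels do not give the sex of the embryos. Of 742 X-linked genes 28 were called and of 9 Y-linked genes 2, both of these lower in Tbx5 KO. Outside X and Y 2.33% of genes were called.

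Transcripts of the sex chromosomes, named here after their values were seen, divided the arrays by group. Xist, the X-linked RNA made where 1 of a pair of X chromosomes is silenced, read 11.46 to 12.32 on the 6 arrays of WT and Tbx5 KO and 6.44 to 8.16 on the 6 arrays of Nkx2-5 KO and double KO. The Y-linked gene Eif2s3y read 5.07 to 6.92 and 10.33 to 10.67 on the same arrays, with WT replicate 3 the highest of the former, and Uty, also on Y, 5.38 to 6.67 and 9.22 to 9.89. Embryo sex and genotype therefore cannot be told apart in the comparison of Tbx5 KO with Nkx2-5 KO, nor in that of Nkx2-5 KO or double KO with WT, which holds for each such difference below. Tbx5 KO and WT lay on the same side of this division for all 3 transcripts. WT replicate 3, at 6.92 for Eif2s3y and 6.67 for Uty, was above every Tbx5 KO array, the highest of which read 5.68 and 6.01. No other X- or Y-linked gene is named, and none enters the counts below.

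Of the 19168 genes, 446 differed between the 2 knockouts (2.33%). In Tbx5 KO 189 were higher (0.986%) and 257 were lower (1.34%). All 446 had values that did not overlap between the 3 Tbx5 KO and the 3 Nkx2-5 KO arrays, as did 18.3% of all genes. The difference was at least 1 on the log2 scale for 62 of the higher and 93 of the lower genes, and the smallest called difference was 0.36. Over all genes the median difference was 0.0103. Called genes were brighter than most, with a median level of 9.26 against 8.38 over all genes. The number of calls depended on single arrays: it was 231 without Nkx2-5 KO replicate 1 and 255 without Tbx5 KO replicate 1, and it was 1356 when arrays were weighted by their quality. For scale, 2.23% of genes differed between Tbx5 KO and WT, 4.39% between Nkx2-5 KO and WT and 23.4% between the double KO and WT. These 3 comparisons share the WT arrays, so their values are given below only gene by gene.

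**Figure D1:**
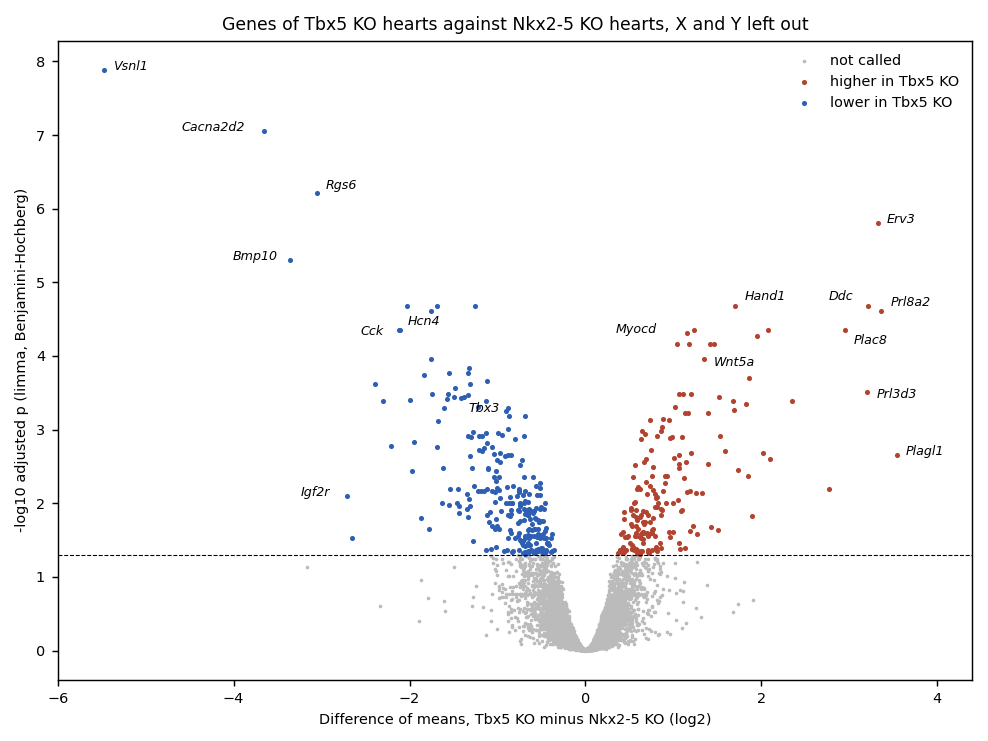
Each point is 1 of 19168 genes, with the difference between Tbx5 KO and Nkx2-5 KO (log2) on the x axis and -log10 of the adjusted p on the y axis; the dashed line is the threshold of 0.05. Blue points are the 257 genes lower and red points the 189 genes higher in Tbx5 KO. Vsnl1 stands alone at the far left, and placental genes such as Prl8a2, Prl3d3 and Erv3 lie at the far right.

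The targeted genes did not pass the test between the groups. The Nkx2-5 probe set read 8.96, 8.72 and 9.13 in Nkx2-5 KO and 9.38, 9.31 and 9.36 in Tbx5 KO, a difference of 0.41 ± 0.11 (SE; adjusted p = 0.0693). Every Nkx2-5 KO array was below every Tbx5 KO array, yet the gap was small. It passed the threshold with arrays centred on their medians, with array weights or without Nkx2-5 KO replicate 3 (adjusted p 0.0115 to 0.0421). Against WT (9.33, 9.36 and 9.35) Nkx2-5 was lower in Nkx2-5 KO, just past the threshold, at -0.41 (adjusted p 0.0499). The Tbx5 probe set read 10.73, 10.42 and 10.45 in Tbx5 KO and 10.53, 10.15 and 10.29 in Nkx2-5 KO, and the groups overlapped (0.21 ± 0.15, adjusted p = 0.652). The Tbx5 KO arrays read above WT (10.15, 10.13 and 9.90), not below it, although that difference did not pass the test, at 0.47 (adjusted p 0.127). The double KO arrays (10.31, 10.65 and 10.83) were above WT too, and there the difference passed, at 0.54 (adjusted p 0.0193). The labels do not say which exons were removed, and a transcript can remain after a deletion, so neither probe set checks the genotypes.

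The largest difference of all was in Vsnl1, a gene of the inflow end of the heart, and the next largest lower one in Cacna2d2 of the same list. Of 20 measured genes of the sinus venosus and pacemaker list, 6 were lower and 0 higher in Tbx5 KO, against 1.34% and 0.986% over all genes, and the list's median difference was -0.43 (all genes, 0.0103). At an unadjusted p under 0.05 the counts were 10 lower and 2 higher, where 2392 of all 19168 genes passed in either direction. The 6 were Vsnl1, Cacna2d2, Hcn4, Nr2f2, Tbx3 and Nr2f1. Between 5 and 8 members were lower over the alternative settings. With array weights 2 were higher, against 570 of all 19168 genes. This and the other gene lists were chosen with earlier results of these data known. A list's share beside that of all genes is therefore a description, not a test.

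Vsnl1 encodes a calcium sensor of the visinin family that marks the sinus venosus and the sinus node. Its level was 12.79, 12.61 and 12.68 in the Nkx2-5 KO arrays and 7.33, 7.50 and 6.84 in the Tbx5 KO arrays, a 44.4-fold difference (-5.47 ± 0.19, SE; 95% interval -5.88 to -5.07; adjusted p = 1.3e-08). The 2 knockouts lay on opposite sides of WT (10.78, 10.60 and 11.32): Tbx5 KO minus WT was -3.67 (adjusted p 1.49e-06) and Nkx2-5 KO minus WT was 1.80 (adjusted p 0.000402). The double KO arrays, at 7.83, 7.67 and 7.62, lay near the Tbx5 KO arrays and far below the Nkx2-5 KO arrays.

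Cacna2d2, an auxiliary subunit of voltage-gated calcium channels, had the same order. It read 12.39, 11.82 and 12.28 in Nkx2-5 KO and 8.47, 8.38 and 8.69 in Tbx5 KO (12.6-fold; -3.65 ± 0.15; adjusted p = 8.83e-08), with 11.02, 11.32 and 11.27 in WT and 8.48, 8.38 and 8.13 in the double KO. Both knockouts differed from WT, by -2.69 (adjusted p 2.41e-06) in Tbx5 KO and by 0.96 (adjusted p 0.00656) in Nkx2-5 KO. Rgs6, a regulator of G protein signalling that quickens the shutdown of the muscarinic response in pacemaker cells, was not on the list and was among the largest lower differences. It read 9.74, 9.20 and 9.06 in Nkx2-5 KO, 6.32, 6.16 and 6.36 in Tbx5 KO, 7.84, 7.79 and 7.67 in WT and 7.04, 7.09 and 6.78 in the double KO (8.32-fold; -3.06 ± 0.16; adjusted p = 6.06e-07). The same sides of WT held as for Vsnl1, with -1.49 (adjusted p 0.000338) in Tbx5 KO and 1.57 (adjusted p 0.000293) in Nkx2-5 KO.

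Hcn4 encodes the main channel of the pacemaker current. It read 10.63, 10.48 and 10.94 in Nkx2-5 KO and 8.18, 8.60 and 8.90 in Tbx5 KO (4.36-fold; -2.12 ± 0.18; adjusted p = 4.45e-05). It was below WT in Tbx5 KO, at -1.22 (adjusted p 0.00416), and above WT in Nkx2-5 KO, at 0.90 (adjusted p 0.0176). In the double KO (9.63, 9.55 and 9.96) it did not differ from WT (9.65, 9.74 and 9.95) beyond the spread, at -0.07 (adjusted p 0.81).

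Tbx3 encodes a T-box repressor that maintains the identity of conduction tissue. It read 9.96, 9.93 and 9.77 in Nkx2-5 KO and 8.44, 8.62 and 8.36 in Tbx5 KO (-1.41 ± 0.16; adjusted p = 0.00037). The WT arrays (8.93, 8.92 and 9.02) lay between the 2 groups, and the difference from WT passed the test for Nkx2-5 KO, at 0.93 (adjusted p 0.00876), but not for Tbx5 KO, at -0.48 (adjusted p 0.153). Nr2f2, also called COUP-TFII, is an orphan nuclear receptor needed for atrial and venous identity. It was instead near WT in Nkx2-5 KO (10.21, 9.64 and 10.39, against 9.91, 10.37 and 10.43 in WT) and lower in Tbx5 KO (8.55, 8.12 and 8.52), with -1.68 ± 0.24 between the knockouts (adjusted p = 0.00174). Its relative Nr2f1 was lower in Tbx5 KO by a smaller step (-0.68 ± 0.16; adjusted p = 0.0458), a call lost in a fit to the 6 compared arrays alone, after a new quantile normalization, with arrays centred on their medians, with the replicate number as a block or without Nkx2-5 KO replicate 1 or 3 or Tbx5 KO replicate 1, 2 or 3 (adjusted p 0.0512 to 0.179).

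Isl1, which marks second heart field progenitors and the sinus node, read 11.03, 11.54 and 10.89 in Nkx2-5 KO and 9.54, 10.50 and 10.33 in Tbx5 KO. The groups did not overlap, but the Tbx5 KO arrays spread by nearly 1 log2 unit and the difference (-1.03 ± 0.31; 95% interval -1.69 to -0.37) did not pass the test (adjusted p = 0.12); with array weights it passed at 0.017. The inflow regulators Tbx18 and Shox2, named here after their values were seen, were not called, at -0.43 ± 0.20 (adjusted p = 0.404) and -0.36 ± 0.15 (adjusted p = 0.327).

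**Figure D2:**
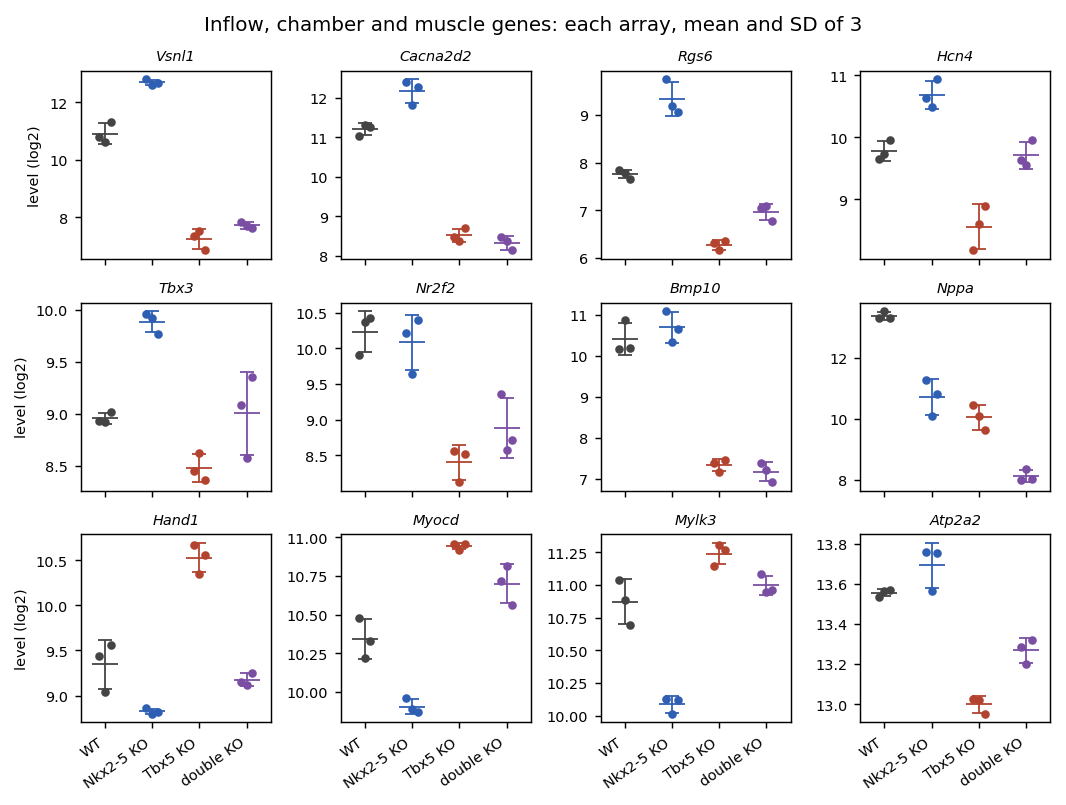
Log2 level of 12 inflow, chamber and muscle genes on each array (points), with the mean and the SD of the 3 arrays of a group (lines); each panel has its own y axis, which does not start at 0. For Vsnl1, Cacna2d2, Rgs6, Hcn4 and Tbx3 the Nkx2-5 KO arrays are the highest and the Tbx5 KO arrays are below WT. Hand1 and Myocd have the reverse order, and Nppa is low in both knockouts.

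The sequence just before the start of 6 called genes of the cardiac lists was searched for the short core motifs of both factor families. The letters searched, on both strands, were GGTGTG and AGGTGT for T-box factors and AAGTG and CAAGTG for NK2 factors, where CAAGTG contains AAGTG. The 6 promoters shown are those of the 3 largest lower (Vsnl1, Cacna2d2 and Bmp10) and the 3 largest higher (Mpped2, Smyd1 and Hand2) called members of the cardiac lists that have an entry. Each is the 250 bases before the RefSeq start on GRCm38.p6, written 5′ to 3′ on the gene's own strand, with a match in capitals. Vsnl1 is at chr12:11436579-11436828, minus strand, and is the first of 2 entries for the gene. Cacna2d2 is at chr9:107399630-107399879, plus strand, and Mpped2 at chr2:106692931-106693180, plus strand, the first of 3 entries. Bmp10 is at chr6:87428744-87428993, plus strand, Smyd1 at chr6:71262282-71262531, minus strand, and Hand2 at chr8:57320733-57320982, plus strand.
Vsnl1: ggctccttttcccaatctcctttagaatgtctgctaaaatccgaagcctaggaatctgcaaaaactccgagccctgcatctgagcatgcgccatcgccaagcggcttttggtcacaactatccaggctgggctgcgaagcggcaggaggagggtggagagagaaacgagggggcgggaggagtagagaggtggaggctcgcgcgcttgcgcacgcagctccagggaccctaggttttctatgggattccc
Cacna2d2: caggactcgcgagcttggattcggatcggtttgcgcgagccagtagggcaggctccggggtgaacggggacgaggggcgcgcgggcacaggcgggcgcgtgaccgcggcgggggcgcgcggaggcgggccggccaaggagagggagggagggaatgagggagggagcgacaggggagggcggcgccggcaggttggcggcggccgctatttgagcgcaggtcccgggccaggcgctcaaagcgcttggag
Bmp10: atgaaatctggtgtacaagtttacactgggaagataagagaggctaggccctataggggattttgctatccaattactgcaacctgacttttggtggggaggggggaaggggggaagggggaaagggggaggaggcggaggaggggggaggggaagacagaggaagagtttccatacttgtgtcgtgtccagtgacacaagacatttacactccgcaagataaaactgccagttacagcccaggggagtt
Mpped2: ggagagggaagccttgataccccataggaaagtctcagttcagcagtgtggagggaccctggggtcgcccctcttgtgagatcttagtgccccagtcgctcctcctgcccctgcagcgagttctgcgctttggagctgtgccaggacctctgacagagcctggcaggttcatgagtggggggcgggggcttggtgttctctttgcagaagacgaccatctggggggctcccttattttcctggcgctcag
Smyd1: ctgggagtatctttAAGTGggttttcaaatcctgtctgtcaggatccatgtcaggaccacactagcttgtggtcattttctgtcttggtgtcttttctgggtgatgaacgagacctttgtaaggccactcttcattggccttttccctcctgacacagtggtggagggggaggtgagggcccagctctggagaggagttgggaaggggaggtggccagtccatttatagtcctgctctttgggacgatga
Hand2: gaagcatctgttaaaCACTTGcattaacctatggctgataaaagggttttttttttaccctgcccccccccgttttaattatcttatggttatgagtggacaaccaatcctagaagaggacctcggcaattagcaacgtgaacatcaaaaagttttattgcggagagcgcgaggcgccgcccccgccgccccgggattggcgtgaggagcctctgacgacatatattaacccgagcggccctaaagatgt
Vsnl1, Cacna2d2, Bmp10 and Mpped2 had no match in this window. Smyd1 had AAGTG at 236 to 232 bases before the start, and Hand2 had CAAGTG, read on the opposite strand, at 235 to 230 bases before it. Among 15008 promoters of this length, 16.1% held GGTGTG, 11.1% AGGTGT, 39.2% AAGTG and 10.5% CAAGTG. Among 330 promoters of called genes the shares were 16.1%, 9.09%, 31.2% and 8.48%. The lack of a match says only that these letters are not in the window.

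Chamber genes did not move as a block. Of 26 measured genes of the chamber and trabecular list, 2 were higher and 3 lower in Tbx5 KO (19.2%, against 2.33% of all genes), with a median of -0.14. Of 16 atrial muscle genes 0 were higher and 3 lower (Nr2f2, Stard10 and Nr2f1; 18.8%), with a median of -0.26. Bmp10, a growth factor of trabecular and atrial muscle that is needed for trabecular growth, differed most. It read 11.09, 10.34 and 10.65 in Nkx2-5 KO and 7.38, 7.17 and 7.46 in Tbx5 KO (10.2-fold; -3.35 ± 0.21; adjusted p = 4.96e-06). The Nkx2-5 KO arrays overlapped WT (10.16, 10.86 and 10.20), while the double KO arrays (7.39, 7.21 and 6.92) overlapped Tbx5 KO. Stard10, a lipid transfer protein, had the same arrangement, with 9.54, 9.49 and 9.68 in Nkx2-5 KO, 8.59, 8.46 and 8.27 in Tbx5 KO and 9.52 ± 0.19 (mean ± SD, n = 3) in WT (-1.13 ± 0.13; adjusted p = 0.000413).

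Hopx, a small homeodomain protein that acts with Srf in cardiac muscle, was below WT in both knockouts and further down in Tbx5 KO, at 9.12, 9.36 and 9.27, than in Nkx2-5 KO, at 9.98, 9.73 and 9.81 (-0.59 ± 0.11; adjusted p = 0.0127). That call was lost without Nkx2-5 KO replicate 1 or Tbx5 KO replicate 1 (adjusted p 0.0721 to 0.076). Lbh, a transcription cofactor of limb and heart, was 12.73, 12.69 and 12.73 in Nkx2-5 KO and 12.05, 12.36 and 12.18 in Tbx5 KO (-0.52 ± 0.09; adjusted p = 0.00774). Mpped2, a metallophosphoesterase, was higher in Tbx5 KO, with 11.68, 11.67 and 11.88 against 10.62, 11.12 and 10.70 (0.93 ± 0.15; adjusted p = 0.00431), and Nkx2-5 KO minus WT was -0.63 (adjusted p 0.0335).

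Several chamber genes did not pass the test between the knockouts, among them Nppa and Gja5, which were below WT in both. Nppa, which encodes the atrial natriuretic peptide and is made in working chamber muscle, read 11.26, 10.08 and 10.82 in Nkx2-5 KO, 10.45, 10.09 and 9.63 in Tbx5 KO and 13.29, 13.52 and 13.29 in WT. The knockouts overlapped, and their difference was -0.66 ± 0.26 (95% interval -1.23 to -0.10; adjusted p = 0.276); it passed only without Nkx2-5 KO replicate 2 (adjusted p 0.0414). Each differed from WT, by -3.31 (adjusted p 3.74e-05) in Tbx5 KO and -2.65 (adjusted p 0.00026) in Nkx2-5 KO, and the double KO was lower again, at 8.01, 8.37 and 8.02.

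Gja5, the connexin of fast conducting and atrial muscle, differed between the knockouts by 0.08 ± 0.36 (95% interval -0.71 to 0.87; adjusted p = 0.97), and its sign turned without Nkx2-5 KO replicate 1 (-0.05) or Tbx5 KO replicate 2 (-0.33). The Tbx5 KO arrays ran from 7.50 to 9.29. Gja5 was below WT in both knockouts by limma, at -1.68 (adjusted p 0.0316) in Tbx5 KO and -1.76 (adjusted p 0.0191) in Nkx2-5 KO. Nppb and Pln, the natriuretic peptide B and phospholamban genes, were chosen after their values were seen and differed by -0.39 ± 0.26 (95% interval -0.95 to 0.17) and 0.01 ± 0.27 (-0.58 to 0.59). Neither difference passed the test (adjusted p = 0.621 and 0.996).

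Of 31 cardiac transcription factors, 4 were higher and 3 lower in Tbx5 KO (22.6% called, against 2.33% of all genes), with a median of 0.10. The 4 higher ones were Hand1, Myocd, Smyd1 and, named after its value was seen, Hand2, and the 3 lower ones were Tbx3, Gata5 and Hopx. The number of lower ones fell to 1 without Nkx2-5 KO replicate 1 or without Tbx5 KO replicate 1. Hand1, a basic helix-loop-helix factor of the left ventricle and outflow, read 10.67, 10.35 and 10.56 in Tbx5 KO and 8.86, 8.80 and 8.82 in Nkx2-5 KO (3.26-fold; 1.70 ± 0.13; adjusted p = 2.09e-05). WT (9.44, 9.04 and 9.56) lay between them, and both knockouts differed from it, at 1.19 (adjusted p 0.000462) for Tbx5 KO and -0.52 (adjusted p 0.0424) for Nkx2-5 KO. The double KO was at 9.18 ± 0.07 (mean ± SD, n = 3), which did not differ from WT by the test, at -0.17 (adjusted p 0.365).

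Myocd, the coactivator of Srf in heart and smooth muscle, was split the same way. It read 10.96, 10.92 and 10.96 in Tbx5 KO, 9.96, 9.89 and 9.87 in Nkx2-5 KO and 10.48, 10.22 and 10.33 in WT (1.04 ± 0.10; adjusted p = 6.94e-05). Tbx5 KO minus WT was 0.60 (adjusted p 0.0062) and Nkx2-5 KO minus WT was -0.44 (adjusted p 0.0228). Smyd1, a muscle histone methyltransferase, read 11.10, 10.97 and 11.06 in Tbx5 KO and 10.32, 10.18 and 9.98 in Nkx2-5 KO (0.88 ± 0.15; adjusted p = 0.00684). Hand2, the relative of Hand1 that is needed for the right ventricle, read 9.83, 9.85 and 10.15 and 9.25, 9.27 and 9.32 (0.66 ± 0.10; adjusted p = 0.00278).

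Gata5, a zinc finger factor of endocardium and heart muscle precursors, was the reverse, with 11.04, 10.76 and 10.75 in Nkx2-5 KO, 9.90, 10.18 and 10.23 in Tbx5 KO and 10.13 ± 0.24 in WT (-0.74 ± 0.13; adjusted p = 0.0101). The call was lost without Nkx2-5 KO replicate 1 or Tbx5 KO replicate 1 (adjusted p 0.0564 to 0.0603). Gata4 and Tbx20, partners of Tbx5 and Nkx2-5 in the core cardiac network, overlapped between the knockouts, with -0.10 ± 0.13 (95% interval -0.38 to 0.19) and 0.16 ± 0.14 (-0.15 to 0.47).

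Of 40 sarcomere and Z-disc genes, 2 were higher (Mylk3 and Xirp1) and 1 lower (Lmod3) in Tbx5 KO (7.5%, against 2.33% of all genes), with a median of 0.04. The myosin genes Myh6 and Myl2 differed by -0.16 ± 0.14 (95% interval -0.46 to 0.15) and 0.16 ± 0.09 (-0.03 to 0.36). Mylk3, the kinase of the cardiac myosin light chain, read 11.15, 11.30 and 11.27 in Tbx5 KO and 10.13, 10.01 and 10.12 in Nkx2-5 KO (1.15 ± 0.10; adjusted p = 4.89e-05), and it was Nkx2-5 KO that lay below WT, at -0.78 (adjusted p 0.00178). Xirp1, which binds actin where muscle cells join, also lay below WT in Nkx2-5 KO (9.74, 9.71 and 9.63) and near WT in Tbx5 KO (10.33, 10.39 and 10.31; 0.65 ± 0.08; adjusted p = 0.00104).

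Lmod3, which nucleates actin thin filaments, was lower in Tbx5 KO, with 8.99, 9.14 and 8.73 against 10.34, 10.29 and 10.25 (-1.34 ± 0.14; adjusted p = 0.000172), and there Tbx5 KO was the group below WT, at -1.06 (adjusted p 0.00148). In 20 calcium handling genes of the sarcoplasmic reticulum, 2 were higher and 2 lower (20.0%, against 2.33% of all genes). Atp2a2, the calcium pump SERCA2, is among the brightest genes of the arrays. It read 13.76, 13.56 and 13.75 in Nkx2-5 KO, 13.03, 13.02 and 12.95 in Tbx5 KO and 13.55 ± 0.02 in WT, so the drop was in Tbx5 KO (-0.69 ± 0.09; adjusted p = 0.000658).

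Trdn, triadin of the calcium release complex, was lower in Tbx5 KO by its brightest probe set (-0.86 ± 0.17; adjusted p = 0.0149), but the gene has 19 probe sets that disagree, and the call was lost with the mean over the probe sets or without Nkx2-5 KO replicate 3 or Tbx5 KO replicate 1 or 2 (adjusted p 0.0644 to 0.354). Casq1 and Fkbp1a, a calsequestrin and the binding protein of the ryanodine receptor, were higher in Tbx5 KO by 0.63 ± 0.12 (adjusted p = 0.0145) and 0.59 ± 0.10 (adjusted p = 0.00632). For both it was Nkx2-5 KO that differed from WT, at -0.62 (adjusted p 0.0166) and -0.58 (adjusted p 0.00874). The Casq1 call was lost without Nkx2-5 KO replicate 2 or 3 or Tbx5 KO replicate 1 (adjusted p 0.0516 to 0.0753). Of 27 ion channel and connexin genes 0 were higher and 2 lower (7.41%, against 2.33% of all genes), which were Cacna2d2 and Hcn4 again.

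Of 31 Wnt pathway genes 5 were higher (Wnt5a, Rspo3, Lef1, Wnt2 and Wnt11) and 2 lower (Fzd7 and, named after its value was seen, Ror1) in Tbx5 KO (22.6%, against 2.33% of all genes), with a median of -0.07. The number of higher ones was 3 without Nkx2-5 KO replicate 1, Nkx2-5 KO replicate 2 or Tbx5 KO replicate 1. Wnt5a, a ligand of the noncanonical branch used in the outflow tract, read 10.36, 10.19 and 10.49 in Tbx5 KO and 8.83, 9.23 and 8.93 in Nkx2-5 KO, the latter overlapping WT at 8.99, 8.88 and 8.85 (1.35 ± 0.13; adjusted p = 0.000109). Lef1, a nuclear partner of beta-catenin, had the same form, with 10.70, 10.56 and 11.01 in Tbx5 KO and 9.56, 9.72 and 9.37 in Nkx2-5 KO (1.21 ± 0.13; adjusted p = 0.00033; Tbx5 KO minus WT 1.40 (adjusted p 0.000138)).

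Rspo3, which amplifies Wnt signals at the receptor, read 10.71, 11.26 and 11.10 and 9.90, 9.40 and 9.78 (1.33 ± 0.23; adjusted p = 0.00724). The ligands Wnt2 and Wnt11 were higher by 0.82 ± 0.19 (adjusted p = 0.0445) and 0.44 ± 0.09 (adjusted p = 0.0162). The Wnt2 call was lost with the replicate number as a block or without Nkx2-5 KO replicate 1 or 2 or Tbx5 KO replicate 1, 2 or 3 (adjusted p 0.073 to 0.182), and the Wnt11 call was lost in a fit to the 6 compared arrays alone or without Nkx2-5 KO replicate 1 or 2 or Tbx5 KO replicate 1 or 3 (adjusted p 0.0528 to 0.0916). The receptor Fzd7 was lower in Tbx5 KO, with 10.24, 10.12 and 10.56 against 11.49, 11.40 and 11.37 (-1.11 ± 0.17; adjusted p = 0.00339), and Nkx2-5 KO lay above WT, at 0.88 (adjusted p 0.0159).

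Of 25 BMP pathway genes 1 was higher (Bmp5) and 3 lower (Bmp10, Bmp2 and Smad7), which is 16.0% against 2.33% of all genes. Bmp2, a ligand that patterns the atrioventricular canal, read 10.75, 10.45 and 10.58 in Nkx2-5 KO and 9.00, 9.00 and 9.96 in Tbx5 KO (-1.28 ± 0.28; adjusted p = 0.0322). Tbx5 KO replicate 3 was about 1 log2 unit above its partners, and the call was lost with arrays centred on their medians or without Nkx2-5 KO replicate 1, 2 or 3 or Tbx5 KO replicate 1 or 2 (adjusted p 0.0541 to 0.141). Smad7, the inhibitory Smad, was lower by 0.57 (-0.57 ± 0.12; adjusted p = 0.0225). That call was lost in a fit to the 6 compared arrays alone or without Nkx2-5 KO replicate 1 or 3 or Tbx5 KO replicate 1 or 2 (adjusted p 0.0644 to 0.117). Bmp5 was higher, with 12.59, 12.41 and 12.49 in Tbx5 KO against 12.01, 11.89 and 11.98 in Nkx2-5 KO (0.54 ± 0.09; adjusted p = 0.00447).

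Of 22 FGF pathway genes 0 were higher and 2 lower in Tbx5 KO, and of 21 second heart field and outflow genes 1 was higher (Wnt11) and 1 lower (Fgf10), shares of 9.09% and 9.52% against 2.33% of all genes. Fgf10 marks second heart field progenitors. It read 10.19, 10.17 and 10.27 in Nkx2-5 KO and 8.47, 8.43 and 9.13 in Tbx5 KO (-1.54 ± 0.26; adjusted p = 0.00632), and it was Nkx2-5 KO that stood above WT (7.72, 8.42 and 8.95), at 1.85 (adjusted p 0.00283). Spry4, a feedback inhibitor induced by FGF signals, was lower in Tbx5 KO by 0.71 (-0.71 ± 0.16; adjusted p = 0.0324), which ended with the replicate number as a block or without Nkx2-5 KO replicate 1 or 3 or Tbx5 KO replicate 3 (adjusted p 0.0552 to 0.134). Aldh1a1, an enzyme of retinoic acid synthesis, was the 1 called gene of 17 in the retinoic acid list (5.88%), with 9.25, 9.35 and 8.72 in Nkx2-5 KO, 7.64, 7.71 and 7.33 in Tbx5 KO and 8.09 ± 0.11 in WT (-1.55 ± 0.16; adjusted p = 0.000172).

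Of 25 Notch, neuregulin and ephrin genes 0 were called by limma. At an unadjusted p under 0.05 there were 2 (both lower), against 2392 of all 19168 genes. With array weights 2 were called, against 1356 of all 19168 genes, and 1 was called without Tbx5 KO replicate 2. Of 31 matrix and cushion genes 2 were higher and 1 lower (9.68%, against 2.33% of all genes). The laminin chain genes went opposite ways: Lama1 was higher in Tbx5 KO (0.86 ± 0.16; adjusted p = 0.0119) and Lama4 lower (-0.70 ± 0.13; adjusted p = 0.00991). The Lama1 call was lost without Nkx2-5 KO replicate 1 or 3 or Tbx5 KO replicate 1 (adjusted p 0.0547 to 0.0673), and the Lama4 call was lost without Nkx2-5 KO replicate 1 or Tbx5 KO replicate 1 (adjusted p 0.0575 to 0.058). Col2a1, a fibrillar collagen of cushions and cartilage, was higher, with 9.51, 9.47 and 9.49 against 8.82, 8.87 and 8.88 (0.63 ± 0.09; adjusted p = 0.00132).

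Other large differences in genes outside the heart lists came from both sides. Ddc, the aromatic amino acid decarboxylase, is imprinted in the embryonic heart, where the copy from the father is used. It read 12.29, 12.10 and 12.27 in Tbx5 KO, 8.80, 9.28 and 8.92 in Nkx2-5 KO and 10.67, 11.06 and 10.03 in WT (9.31-fold; 3.22 ± 0.25; adjusted p = 2.09e-05). Both knockouts differed from WT, at 1.63 (adjusted p 0.00512) in Tbx5 KO and -1.58 (adjusted p 0.00614) in Nkx2-5 KO.

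Plac8, a small cysteine-rich protein, read 10.90, 10.46 and 10.66 in Tbx5 KO and 7.69, 8.37 and 7.10 in Nkx2-5 KO (2.95 ± 0.25; adjusted p = 4.45e-05). Dpysl3, a regulator of the cytoskeleton in migrating cells, read 11.77, 11.59 and 11.55 and 9.76, 9.52 and 9.40 (2.08 ± 0.18; adjusted p = 4.45e-05). In both of these genes Tbx5 KO did not differ from WT by the test (0.43 (adjusted p 0.479) and 0.22 (adjusted p 0.654)), and Nkx2-5 KO was below it, at -2.52 (adjusted p 0.000336) and -1.86 (adjusted p 0.00023).

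Tlcd4 and Plppr5, membrane proteins of the TLC and phospholipid phosphatase related families, were higher in Tbx5 KO by 2.77 ± 0.47 (adjusted p = 0.00638) and 2.35 ± 0.27 (adjusted p = 0.000413), and S100a6, a calcium-binding protein, by 1.85 ± 0.29 (adjusted p = 0.00424). Upk1b, a uroplakin made in mesothelium, was higher by 1.89 ± 0.37 (adjusted p = 0.0149) and was the 1 higher member of 15 proepicardial and epicardial genes, where Gata5 was the 1 lower one (13.3% called, against 2.33% of all genes). The Upk1b call was lost without Nkx2-5 KO replicate 1 or 2 or Tbx5 KO replicate 1 or 3 (adjusted p 0.0553 to 0.0792).

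On the lower side, Cck, the cholecystokinin gene, read 10.14, 9.80 and 9.83 in Nkx2-5 KO and 7.89, 7.64 and 7.92 in Tbx5 KO (-2.11 ± 0.18; adjusted p = 4.45e-05), with the double KO at 7.51, 7.91 and 7.69. Atp8a1, a phospholipid flippase, read 11.05, 10.56 and 10.88 and 8.83, 8.67 and 8.89 (-2.03 ± 0.16; adjusted p = 2.09e-05), and as with Vsnl1 the knockouts lay on opposite sides of WT, at -0.89 (adjusted p 0.0115) in Tbx5 KO and 1.15 (adjusted p 0.0025) in Nkx2-5 KO. Thbs4, a thrombospondin of the matrix, was near WT in Nkx2-5 KO and lower in Tbx5 KO (11.80, 10.85 and 11.06 against 9.33, 9.09 and 9.31; -2.00 ± 0.23; adjusted p = 0.0004).

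Rxfp1, the relaxin receptor, and Prm1, a protamine best known from sperm, were both lower in Tbx5 KO than in Nkx2-5 KO, and there Nkx2-5 KO stood above WT. Rxfp1 differed by -2.21 ± 0.31 (adjusted p = 0.00165; Nkx2-5 KO minus WT 1.46 (adjusted p 0.0206)). Prm1 read 11.40, 11.36 and 10.59 in Nkx2-5 KO, 8.50, 9.06 and 8.89 in Tbx5 KO, 9.11, 8.28 and 8.46 in WT and 11.12, 10.76 and 11.49 in the double KO (-2.30 ± 0.27; adjusted p = 0.000413). Prm1 was thus high in the groups that were low in Xist. Pdgfra, a growth factor receptor of mesenchyme and sinus venosus progenitors, was lower in Tbx5 KO (-1.87 ± 0.37; adjusted p = 0.0158), a call lost without Nkx2-5 KO replicate 1 or 3 or Tbx5 KO replicate 1 or 2 (adjusted p 0.0508 to 0.076).

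In energy metabolism, 0 of 32 glycolysis and hypoxia genes and 0 of 28 respiratory chain genes were called by limma. At an unadjusted p under 0.05 there were 10 and 2, against 2392 of all 19168 genes. With array weights 7 and 2 were called, against 1356 of all 19168 genes. Of 34 genes of the citric acid cycle and fatty acid oxidation, 1 was higher and 1 lower (5.88%, against 2.33% of all genes), and both carry fatty acids. Cd36, the fatty acid transporter of the membrane, read 10.76, 9.72 and 10.31 in Nkx2-5 KO and 7.65, 8.13 and 7.83 in Tbx5 KO (-2.39 ± 0.25; adjusted p = 0.00024), with Tbx5 KO below WT at -1.72 (adjusted p 0.0041). Fabp4, a fatty acid binding protein, went the other way, with 7.83, 8.02 and 7.92 in Tbx5 KO and 6.71, 6.51 and 6.83 in Nkx2-5 KO (1.24 ± 0.11; adjusted p = 4.45e-05). WT lay between them, and both knockouts differed from it.

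Genes of the cell cycle leaned to Tbx5 KO without single calls. Of 28 DNA replication genes 27 had a positive difference (median 0.27), and of 29 mitosis genes 28 (median 0.24). None was called by limma. An unadjusted p under 0.05 was reached by 10 and 7, all of them higher, against 2392 of all 19168 genes in either direction. With array weights 6 and 1 were called, against 1356 of all 19168 genes. In a fit to the 6 compared arrays alone 1 replication gene was called, and without Nkx2-5 KO replicate 2 also 1. The genes of these lists share the same 6 arrays, so their number is not a number of independent observations. The mean level of the replication list was 10.35 to 10.41 on the Tbx5 KO arrays, 9.97 to 10.32 on the Nkx2-5 KO arrays and 10.57 to 10.60 on the WT arrays.

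Genes of the immediate early response were the list with the largest share of calls. Of 24 genes 0 were higher and 9 lower in Tbx5 KO (37.5%, against 1.34% of all genes), with a median of -0.46. The 9 were Atf3, Egr1, Fosb, Jun and Btg2 and, named after their values were seen, Fos, Ccn1, Ccn2 and Myc. Over the alternative settings 5 to 10 were lower, with 5 without Tbx5 KO replicate 3 and 6 without Nkx2-5 KO replicate 2 or 3. These genes are induced within minutes by growth factors, stress and handling of tissue, and the part of dissection in these values was not tested.

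Jun, a subunit of the AP-1 factor, read 11.29, 11.63 and 11.34 in Nkx2-5 KO and 10.40, 10.11 and 10.39 in Tbx5 KO (-1.12 ± 0.12; adjusted p = 0.000218), and the latter overlapped WT at 10.30, 10.40 and 10.44. Egr1, a zinc finger factor of the early response, read 9.42, 10.43 and 10.18 and 8.61, 8.36 and 8.70 (-1.46 ± 0.26; adjusted p = 0.00991), and Btg2, an antiproliferative gene that p53 also induces, read 10.34, 10.84 and 10.45 and 9.39, 9.47 and 9.45 (-1.11 ± 0.17; adjusted p = 0.00332). Fosb, another AP-1 subunit, was lower by 1.34 (-1.34 ± 0.25; adjusted p = 0.0119). In Jun, Egr1 and Btg2 it was Nkx2-5 KO that was above WT, at 1.03 (adjusted p 0.000677), 1.42 (adjusted p 0.0129) and 1.08 (adjusted p 0.00614), and the double KO was above WT as well, at 1.07 (adjusted p 6.55e-05), 1.87 (adjusted p 0.000319) and 1.65 (adjusted p 4.33e-05). Nkx2-5 KO and double KO against WT and Tbx5 KO is also the division that Xist and the Y-linked genes showed.

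Atf3, which belongs to the early and the stress response, read 10.86, 11.38 and 11.27 in Nkx2-5 KO and 9.36, 9.40 and 9.53 in Tbx5 KO (-1.74 ± 0.19; adjusted p = 0.000329). Of 26 genes of the integrated stress response and amino acid supply, 0 were higher and 4 lower in Tbx5 KO (15.4%, against 1.34% of all genes), with a median of -0.26. Besides Atf3 they were Slc7a11, the cystine transporter (-1.27 ± 0.21; adjusted p = 0.00576), Ppp1r15a, the phosphatase subunit that ends the response (-0.88 ± 0.11; adjusted p = 0.000987), and Atf4, its central factor (-0.49 ± 0.11; adjusted p = 0.0408). The Atf4 call was lost in a fit to the 6 compared arrays alone, with arrays centred on their medians, with the replicate number as a block or without Nkx2-5 KO replicate 1, 2 or 3 or Tbx5 KO replicate 1 or 2 (adjusted p 0.0637 to 0.141). Of 21 heat shock genes 1 was higher (4.76%, against 2.33% of all genes), the small cardiac chaperone Hspb7 (0.59 ± 0.14; adjusted p = 0.0428). That call was lost in a fit to the 6 compared arrays alone or without Nkx2-5 KO replicate 1, 2 or 3 or Tbx5 KO replicate 1 or 3 (adjusted p 0.0735 to 0.172). Of 18 p53 target genes 1 was lower, Btg2 (5.56%).

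Several placental genes were high in the Tbx5 KO arrays. Their list was chosen with earlier results of these data known, so its share of calls is no independent support. Of 27 trophoblast and decidua genes 5 were higher (18.5%, against 0.986% of all genes) and 0 lower, and the number was 5 or 6 in every alternative setting. Yet the list's median was 0.06, and the other 22 members were not called. Prl8a2, a prolactin family hormone of the decidua, read 9.52, 9.69 and 10.39 in Tbx5 KO, 6.18, 6.73 and 6.59 in Nkx2-5 KO, 7.18, 6.37 and 6.59 in WT and 7.21, 6.43 and 6.71 in the double KO (10.3-fold; 3.37 ± 0.27; adjusted p = 2.49e-05). Prl3d3, placental lactogen of trophoblast giant cells, read 10.56, 9.71 and 9.40 in Tbx5 KO and 5.94, 7.40 and 6.72 in Nkx2-5 KO (3.20 ± 0.35; adjusted p = 0.000313), with 5.57 ± 0.28 in WT (mean ± SD, n = 3).

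Erv3, an endogenous retroviral envelope gene of the list, read 10.43, 10.94 and 11.27 in Tbx5 KO and 7.50, 7.54 and 7.64 in Nkx2-5 KO (10.0-fold; 3.33 ± 0.19; adjusted p = 1.58e-06). Prl7a1 and Prl4a1, further prolactin family members, were higher by 1.95 ± 0.17 (adjusted p = 5.4e-05) and 1.13 ± 0.14 (adjusted p = 0.000596). Prl2c5, a proliferin, and Gzmd, a granzyme of uterine natural killer cells, were not on the list and were higher by 2.09 ± 0.31 (adjusted p = 0.00247) and 2.02 ± 0.29 (adjusted p = 0.00208). The prolactin genes are near copies of each other, so their probe sets may share signal.

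Of the 5 trophoblast and decidua markers 2 were measured. Their mean level was 7.43 to 8.17 on the Tbx5 KO arrays, 5.73 to 6.46 on the Nkx2-5 KO arrays, 5.37 to 5.62 in WT and 5.32 to 5.65 in the double KO. Prl3d3 carried this gap, and Tpbpa, the other measured marker, which marks the spongiotrophoblast, differed by 0.06 ± 0.09 (adjusted p = 0.904) at a level of 5.60 ± 0.16 in Tbx5 KO. The part of trophoblast or decidual RNA in the values of the Tbx5 KO arrays was not tested.

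Imprinted genes are read from the copy of 1 parent. Of 18 maternally expressed genes 0 were higher and 2 lower in Tbx5 KO, and of 23 paternally expressed genes 2 were higher and 0 lower, shares of 11.1% and 8.70% against 2.33% of all genes. Plagl1, a paternally expressed zinc finger factor, read 12.27, 12.58 and 12.21 in Tbx5 KO, 8.25, 10.52 and 7.67 in Nkx2-5 KO, 11.94, 12.51 and 12.08 in WT and 11.64, 11.76 and 11.64 in the double KO (11.6-fold; 3.54 ± 0.51; adjusted p = 0.00219). Nkx2-5 KO was the low group and replicate 2 stood more than 2 log2 units above the other replicates there. Ndn, a paternally expressed gene of the MAGE family, was higher by 0.58 (0.58 ± 0.12; adjusted p = 0.0201), a call lost without Nkx2-5 KO replicate 2 or 3 or Tbx5 KO replicate 1 or 2 (adjusted p 0.0576 to 0.0909).

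Igf2r, the maternally expressed receptor that clears Igf2, read 13.39, 12.75 and 13.23 in Nkx2-5 KO, 10.62, 10.18 and 10.44 in Tbx5 KO and 13.24, 13.17 and 13.17 in the double KO (6.53-fold; -2.71 ± 0.47; adjusted p = 0.00789). In WT it read 10.30, 10.67 and 12.84, so 1 WT array was near the Nkx2-5 KO level and the others near the Tbx5 KO level. Zim1, a maternally expressed zinc finger gene, had the same arrangement, with 10.05, 9.87 and 9.76 in Nkx2-5 KO, 7.39, 7.03 and 7.28 in Tbx5 KO and 7.06, 7.11 and 10.07 in WT (-2.66 ± 0.58; adjusted p = 0.0294). The Zim1 call was lost without Nkx2-5 KO replicate 1, 2 or 3 or Tbx5 KO replicate 1, 2 or 3 (adjusted p 0.0743 to 0.119).

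**Figure D3:**
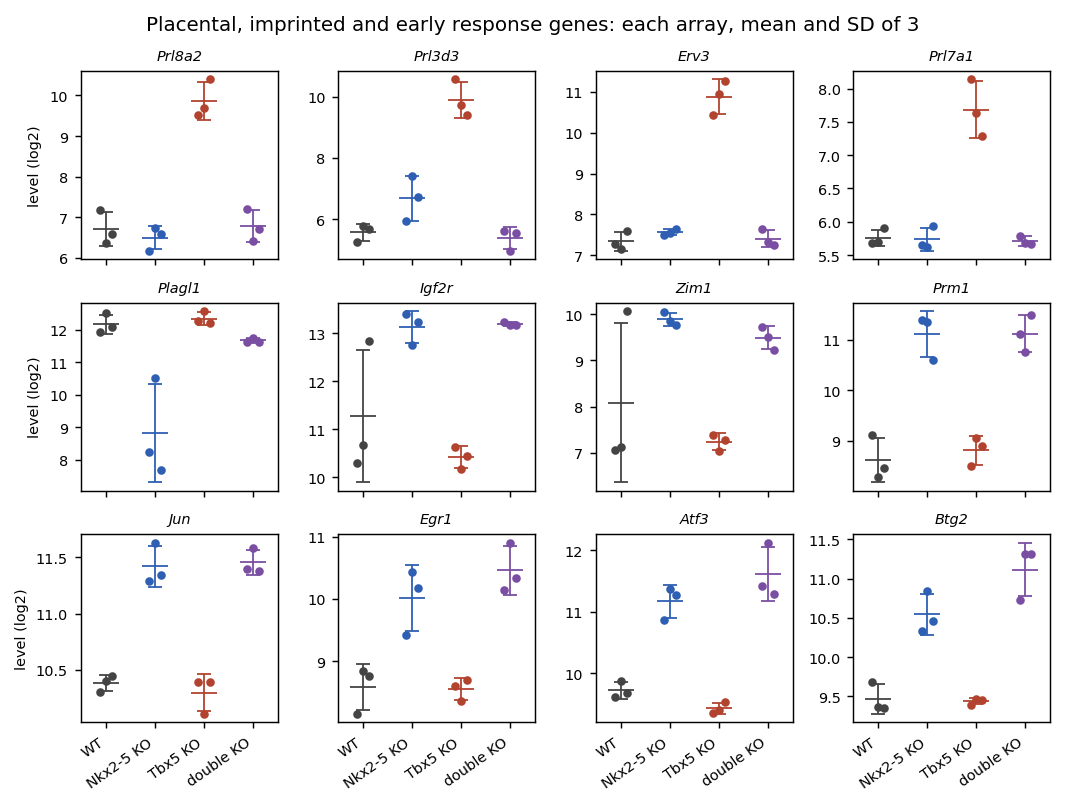
Log2 level of 12 placental, imprinted and early response genes on each array (points), with the mean and the SD of the 3 arrays of a group (lines); each panel has its own y axis, which does not start at 0. Prl8a2, Prl3d3, Erv3 and Prl7a1 are highest in the Tbx5 KO arrays. Igf2r and Zim1 have 1 WT array at the level of the Nkx2-5 KO arrays, and Jun, Egr1, Atf3 and Btg2 are high in Nkx2-5 KO and in the double KO.

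Of the genes of neighbouring tissues, 4.0% of the endocardial and endothelial, 5.26% of the pharyngeal and 5.88% of the neural list were called, 1 gene in each, against 2.33% of all genes. Among 25 endocardial and endothelial genes 0 were higher and 1 lower, Nfatc1, the endocardial cushion factor (-0.69 ± 0.17; adjusted p = 0.0483), and that call was lost in a fit to the 6 compared arrays alone, with the replicate number as a block or without Nkx2-5 KO replicate 1 or 3 or Tbx5 KO replicate 1 or 3 (adjusted p 0.0911 to 0.211). The mean level of the 7 endocardial markers was 9.79 to 10.01 in Tbx5 KO and 10.14 to 10.48 in Nkx2-5 KO. Among 19 genes of pharyngeal mesenchyme and neural crest 1 was lower, Sox9, with 9.73, 9.71 and 9.90 in Tbx5 KO and 10.43, 10.91 and 10.60 in Nkx2-5 KO (-0.86 ± 0.16; adjusted p = 0.00991).

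Of 17 neural genes 1 was lower, Pax6, an eye and neural tube factor (-0.72 ± 0.16; adjusted p = 0.0348). The call was lost in a fit to the 6 compared arrays alone, with arrays centred on their medians or without Nkx2-5 KO replicate 1, 2 or 3 or Tbx5 KO replicate 1 or 2 (adjusted p 0.0594 to 0.151). Pax6 was lowest in WT (7.40, 7.47 and 7.39) and higher in both knockouts, at 0.97 (adjusted p 0.00819) and 1.70 (adjusted p 0.00023). The mean of the 4 neural markers was 8.06 to 8.41 in Tbx5 KO, 8.43 to 9.33 in Nkx2-5 KO and 7.68 to 7.86 in WT, and the part of neighbouring tissue in these values was not tested.

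Of 25 foregut and visceral endoderm genes, 10 erythroid genes and 15 platelet, macrophage and other blood cell genes, 0 were called by limma. At an unadjusted p under 0.05 there were 8, 1 and 2, all lower in Tbx5 KO, against 2392 of all 19168 genes in either direction. With array weights 5, 0 and 2 were called, against 1356 of all 19168 genes. Without Nkx2-5 KO replicate 3 the count was 3 for endoderm, without Nkx2-5 KO replicate 2 it was 2 for platelets and macrophages, and in a fit to the 6 compared arrays alone it was 2 for endoderm. Of 12 smooth muscle genes 2 were higher and 0 lower (16.7%, against 2.33% of all genes), Myocd and Csrp1, a LIM protein of smooth muscle (0.70 ± 0.12; adjusted p = 0.0076). Of 7 reference genes 0 were called, with 2 at an unadjusted p under 0.05 and 1 called with array weights.

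**Figure D4:**
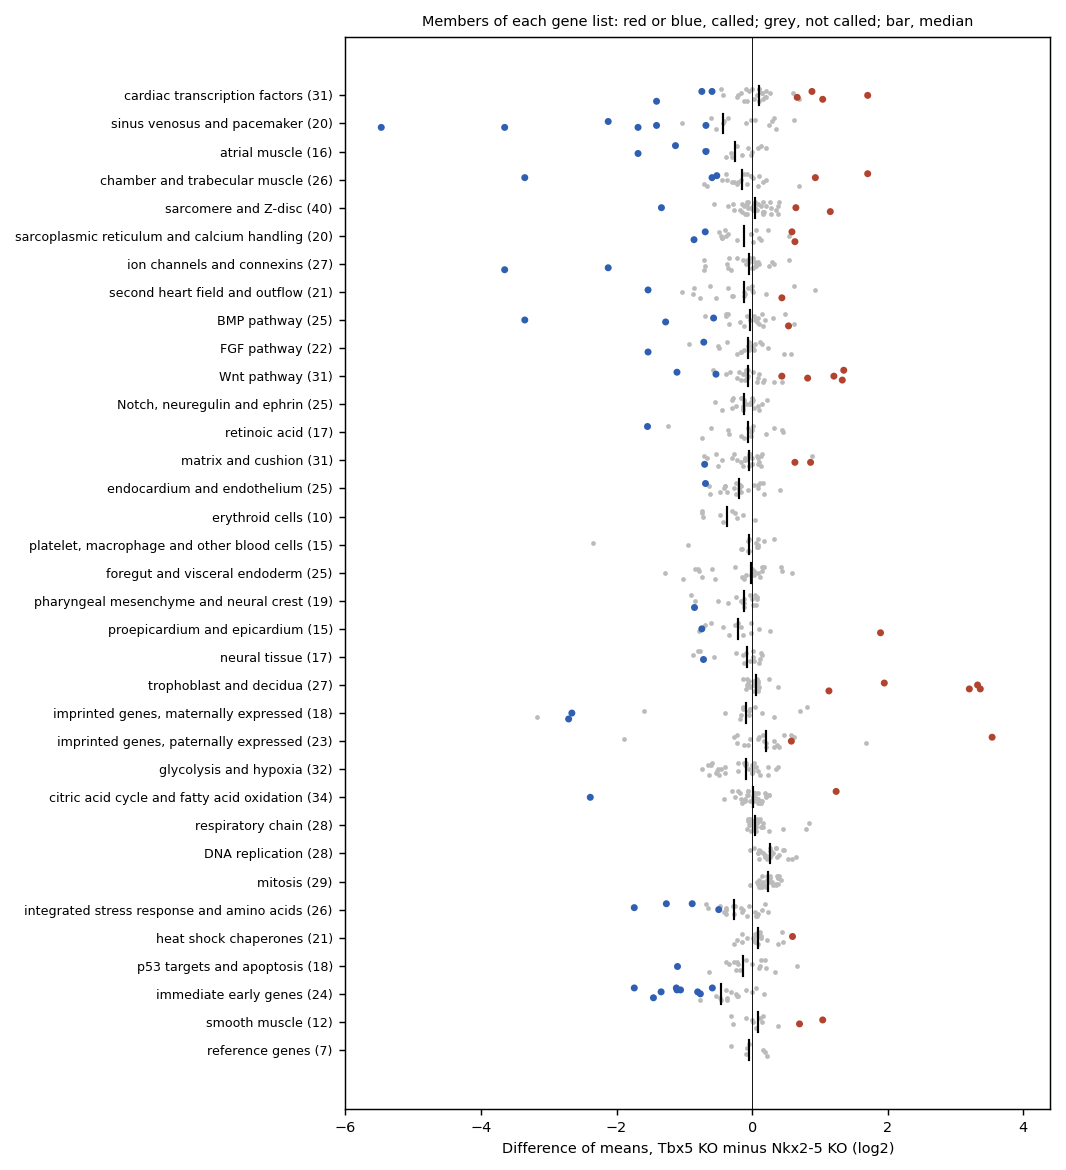
Each row is a gene list with its number of measured genes in brackets; points are its members' differences between Tbx5 KO and Nkx2-5 KO (log2, x axis), in red or blue where called and grey where not, and the black bar is the median. The inflow and immediate early lists have medians near -0.43 and -0.46, the mitosis and replication lists lie almost wholly to the right of 0, and the placental list has 5 members far to the right of a median of 0.06.

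Of 257 microRNA genes 6 were called, the same share as over all genes (2.33%), 3 higher and 3 lower in Tbx5 KO. The rule for named genes leaves microRNAs out, so they are named here after their values were seen, and the probe sets measure the gene or its precursor, not the mature form. The largest lower differences were let-7f-1 and let-7d, whose hairpins lie 1714 bases apart on chromosome 13 and whose main arms share a seed. The seed (bases 2 to 8, in capitals) is what pairs with target transcripts, and the mature sequences from RefSeq (GRCm38.p6) show that let-7d and let-7f have the same one while miR-17 does not.
let-7d-5p: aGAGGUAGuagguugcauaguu
let-7f-5p: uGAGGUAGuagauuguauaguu
miR-17-5p: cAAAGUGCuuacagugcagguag
The let-7f-1 gene read 9.22, 9.02 and 9.23 in Nkx2-5 KO and 7.61, 7.32 and 6.71 in Tbx5 KO (-1.95 ± 0.27; adjusted p = 0.00148). The let-7d gene read 10.00, 9.93 and 9.73 and 8.65, 7.85 and 8.46 (-1.56 ± 0.17; adjusted p = 0.000329), and Nkx2-5 KO stood above WT, at 1.23 (adjusted p 0.00298). Mir17hg, the host transcript of the growth-promoting miR-17 cluster, and the Mir17 gene within it were both lower in Tbx5 KO, with differences of -0.80 ± 0.11 (adjusted p = 0.00132) and -0.76 ± 0.16 (adjusted p = 0.0251). The Mir17 call was lost without Nkx2-5 KO replicate 1, 2 or 3 or Tbx5 KO replicate 1 or 3 (adjusted p 0.0622 to 0.111).

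Mir143 and Mir145a, a neighbouring pair of microRNA genes known from smooth muscle and early heart, were higher in Tbx5 KO. Mir143 read 10.19, 9.53 and 10.37 in Tbx5 KO and 8.09, 7.99 and 8.41 in Nkx2-5 KO (1.86 ± 0.19; adjusted p = 0.000201), and Mir145a read 7.53, 7.37 and 7.27 and 6.42, 6.20 and 6.34 (1.07 ± 0.16; adjusted p = 0.00329). Tbx5 KO was the group above WT for both, at 1.40 (adjusted p 0.00281) and 0.90 (adjusted p 0.0132). Mir713 was higher by 0.54 ± 0.12 (adjusted p = 0.0397), a call lost in a fit to the 6 compared arrays alone, after a new quantile normalization, with arrays centred on their medians, with the mean over the probe sets, with the replicate number as a block or without Nkx2-5 KO replicate 1, 2 or 3 or Tbx5 KO replicate 1, 2 or 3 (adjusted p 0.0536 to 0.194).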

How the data were processed

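The deposited table holds the authors' log2 values per probe set for 12 arrays, 3 in each of 4 groups. Which software summarised and normalized them was not given in the sources used here. Values ran from 3.21 to 14.7, with array medians of 8.05 to 8.25, and no further normalization was applied. Of 35557 probe sets, 21789 had 1 gene symbol, 1621 several and 12147 none in the platform annotation; 21698 matched a RefSeq gene (GRCm38.p6) by Entrez number. Probe sets on X or Y (823) or with no known chromosome (23) were left out of the counts. The brightest probe set stood for each of 19938 genes (999 had several).

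Group means were fitted to all 12 arrays with limma 3.58.1 in R 4.3.3 (8 residual degrees of freedom, plus 4.51 prior ones). The X- and Y-linked genes stayed in the fit and in the Benjamini-Hochberg adjustment. The number of arrays limits the precision: the median SE of a difference was 0.124. Intervals cover 95%. The code was tested on simulated data.

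The comparison and the gene lists were chosen with earlier results of these data known. Named were the 2 targeted genes, a panel of 10 heart genes, the 14 largest called differences each way (leaving out predicted genes, microRNAs, small nucleolar RNAs and olfactory or vomeronasal receptors) and up to 5 called members of each of 36 lists. Further genes are marked as named after their values were seen, apart from the cell type marker Tpbpa. No 2 arrays had identical values. The 16 alternatives covered arrays in the fit, normalization, prior variance, array weights, dim genes, probe sets, X and Y, a replicate block and leaving out each compared array.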

Additional observations from a re-analysis of the deposited data

How the results depend on the processing

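With array weights (0.545 to 2.64 per array) 1356 genes were called, 570 higher and 786 lower in Tbx5 KO, among them all 446 of the calls reported, and 150 list members in place of 68. Leaving out 1 compared array gave 231 to 394 calls (103 to 171 higher, 128 to 223 lower) and 47 to 68 called list members; the fewest came without Nkx2-5 KO replicate 1, which kept 223 of the 446 calls. Fewer arrays enter those fits. The other alternatives gave 372 (arrays centred on their medians) to 471 (each probe set on its own) calls. A fit to the compared arrays alone gave 420 calls, 331 of them shared with the 446. Of the 86 named genes, 77 were called, and 57 of these kept the call under the 15 alternatives that give 1 value per gene; the other 20 are marked beside their values. Gzmd, whose mean level is below the limit of 6 set on dim genes, has no value there. The difference of Gja5, 0.08, turned to -0.05 without Nkx2-5 KO replicate 1 and to -0.33 without Tbx5 KO replicate 2, in a range of -0.33 to 0.57 over the arrays left out, none past the threshold.

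Tbx5 KO and Nkx2-5 KO arrays with the same replicate number did not deviate together (correlations -0.026, -0.19 and -0.258). Those with unlike numbers gave -0.074 to 0.261. With 3 arrays in a group these correlations cannot decide whether the numbers pair the samples. With the replicate block 391 genes were called, 165 higher and 226 lower, and 361 of the 446 were kept.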

Other observations

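Several imprinted genes, chosen here after their values were seen, had large differences that did not pass the test and a wide spread within groups. Grb10, a maternally expressed adaptor that restrains growth, read 12.66, 12.63 and 12.54 in Nkx2-5 KO, 9.48, 9.03 and 9.81 in Tbx5 KO and 8.56, 8.29 and 12.65 in WT (-3.17 ± 0.84, SE; adjusted p = 0.0744 in limma); it passed in a fit to the 6 compared arrays alone or with array weights (adjusted p 9.05e-05 to 0.0236). The growth factor gene Igf2 read 12.30, 9.13 and 12.34 in Tbx5 KO, 13.09, 13.11 and 13.25 in Nkx2-5 KO and 9.57, 9.76 and 12.93 in WT. For both genes WT replicate 3 was the high one of its group, as for Igf2r and Zim1. Nnat, a paternally expressed gene, read 9.46, 11.52 and 8.65 in Nkx2-5 KO and 11.48, 11.59 and 11.59 in Tbx5 KO; its high Nkx2-5 KO array, replicate 2, was also the high one for Plagl1. Cdkn1c, the imprinted inhibitor of the cell cycle, read 10.05, 10.29 and 10.15 in Tbx5 KO, 11.68, 11.96 and 11.63 in Nkx2-5 KO and 12.74, 9.37 and 12.66 in WT. The cause of these spreads was not tested.

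The called genes lay on all 19 autosomes. The share called was between 1.47% and 2.99% on 17 of them, 3.67% on chromosome 13 (27 of 735 genes) and 4.45% on chromosome 18 (21 of 472 genes). The called genes of chromosome 13 include the prolactin family genes Prl8a2, Prl3d3, Prl2c5, Prl7a1 and Prl4a1 and the let-7d and let-7f-1 genes, and those of chromosome 18 include Dpysl3, Egr1, Smad7, Spry4, Nfatc1, Mir143 and Mir145a.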
